A study of Homo sapiens with 4 samples.

Results

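The genes described here were 50 genes of the G2 phase and mitosis: mitotic kinases and their cyclins, spindle checkpoint genes, mitotic kinesins, centromere proteins, anaphase genes, and genes of cytokinesis and chromosome structure. They were chosen by symbol, and each of the 50 matched 1 of the 58735 gene rows of the count table. All 50 were among the 15721 genes that passed the expression filter and were tested, so no member was lost to low counts. The cells were SW1990, an established human pancreatic ductal adenocarcinoma line. The vehicle group (2 libraries) and the gomisin G group (2 libraries) were both collected after 24 h, and the gomisin G cells received 10 µM of the compound, a lignan of Schisandra fruits. The series title names Hippo-YAP signalling, and the comparison here asks how the level of mitosis transcripts differed between the groups.

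Mitosis is started by CDK1 bound to its B-type cyclins and carried forward by the polo and aurora kinases. Kinesin motors build the spindle and move chromosomes on it, and the spindle checkpoint holds the cell until every kinetochore, the protein structure on a centromere, is attached. The ubiquitin ligase APC/C with its activator CDC20 then marks cyclin B and securin for destruction, which frees separase to cut cohesin and starts anaphase. Most of these genes are transcribed together late in the cell cycle, and a short promoter element called the cell cycle genes homology region, with CCAAT boxes upstream of it, is known to take part in that timing.

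The vehicle libraries held 14580848 and 14901526 counts and those of gomisin G 15034663 and 15245770, with replicate 1 first here and throughout. Over genes with at least 20 counts, chi-square per gene was 7.63 between the vehicle libraries and 41.7 between the gomisin G libraries, so the gomisin G libraries differed more from each other. No label states whether replicates were separate cultures. The p-values therefore measure only how these samples spread, and that spread may be technical. Of 7 epithelial markers, 6 reached 1 CPM (counts scaled to normalized library size) in all 4 libraries, and KRT7 did not. Their summed level was 7010 to 11200 CPM. The leukocyte genes PTPRC and CD3E and the fibroblast genes COL1A2 and LUM were at 0 in all 4 libraries, and CD14 was the leukocyte marker that reached 1 CPM in all 4. The summed level was 4.67 to 6.12 CPM over 5 leukocyte markers, 3.24 to 7.64 CPM over 6 fibroblast markers and 0.207 to 0.966 CPM over 3 endothelial markers. At these depths a count of 0 allows up to 0.189 to 0.207 CPM, counting error only.

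Promoter sequences of 42 of the 50 genes were found in a RefSeq table for GRCh38.p14 that covers 250 bases before to 50 bases after each gene's start. Below are 5 of them, chosen after their values were seen: KIF15, the kinesin gene that passed the test; BUB1B, the checkpoint gene with the lowest p; and CCNB1, CDC20 and PTTG1, whose libraries overlapped. Each is written 5′ to 3′ on the + strand, which is the strand of all 5 genes, at chr3:44761544-44761843 for KIF15, chr15:40160819-40161118 for BUB1B, chr5:69166900-69167199 for CCNB1, chr1:43358731-43359030 for CDC20 and chr5:160421605-160421904 for PTTG1. Capitals mark the homology region words TTTGAA and TTTAAA and the CCAAT word, each on either strand, so TTTGAA can appear as TTCAAA and CCAAT as ATTGG.
KIF15: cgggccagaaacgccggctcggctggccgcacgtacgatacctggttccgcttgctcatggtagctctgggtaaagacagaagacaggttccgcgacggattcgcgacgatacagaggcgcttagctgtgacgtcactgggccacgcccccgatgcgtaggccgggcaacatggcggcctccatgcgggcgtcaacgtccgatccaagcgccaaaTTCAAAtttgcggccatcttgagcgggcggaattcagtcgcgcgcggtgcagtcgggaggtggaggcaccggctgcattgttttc
BUB1B: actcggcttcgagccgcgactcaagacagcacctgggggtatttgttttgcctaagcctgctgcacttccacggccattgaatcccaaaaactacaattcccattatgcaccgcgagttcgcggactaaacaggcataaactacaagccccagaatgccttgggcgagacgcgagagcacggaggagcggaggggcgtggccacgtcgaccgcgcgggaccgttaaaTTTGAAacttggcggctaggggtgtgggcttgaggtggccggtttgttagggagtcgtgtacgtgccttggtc
CCNB1: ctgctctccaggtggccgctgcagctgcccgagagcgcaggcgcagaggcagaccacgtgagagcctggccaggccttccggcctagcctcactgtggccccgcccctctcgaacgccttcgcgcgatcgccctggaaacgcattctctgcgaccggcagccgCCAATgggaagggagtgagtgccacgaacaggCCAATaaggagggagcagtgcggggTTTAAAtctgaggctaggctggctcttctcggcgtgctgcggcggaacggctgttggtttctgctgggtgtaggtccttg
CDC20: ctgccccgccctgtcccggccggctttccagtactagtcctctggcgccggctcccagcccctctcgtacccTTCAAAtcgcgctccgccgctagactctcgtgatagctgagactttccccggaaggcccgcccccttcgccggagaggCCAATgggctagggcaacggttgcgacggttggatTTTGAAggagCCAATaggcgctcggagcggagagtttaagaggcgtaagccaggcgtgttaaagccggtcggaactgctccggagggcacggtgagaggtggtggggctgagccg
PTTG1: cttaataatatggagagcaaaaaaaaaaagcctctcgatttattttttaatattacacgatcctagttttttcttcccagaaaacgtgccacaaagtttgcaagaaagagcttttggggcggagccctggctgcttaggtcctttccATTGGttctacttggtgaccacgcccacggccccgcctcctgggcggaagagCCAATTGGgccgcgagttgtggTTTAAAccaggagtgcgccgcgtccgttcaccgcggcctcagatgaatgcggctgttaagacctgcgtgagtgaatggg

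KIF15 held 1 homology region word, at -35 from the start, and BUB1B held 1 at -23, and neither had a CCAAT word in this window. CCNB1 had TTTAAA at -30 with CCAAT at -87 and -55, and PTTG1 had TTTAAA at -29 with CCAAT words at -103, -51 and -48, of which the last 2 overlap on opposite strands. CDC20 had TTTGAA at -65 and -178 and CCAAT at -100 and -55. The gene that fell in the test and the genes that did not thus shared the homology region word within 100 bases of the start.

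Some genes had more than 1 promoter listed (51 for the 42 genes), and a gene counts where any of its promoters held the word. Of the 42 genes, 36 (85.7%) held TTTGAA or TTTAAA on either strand, against 27.9% of the 27305 genes of the table. TTTAAA is its own reverse complement and so is counted once. From 100 bases before to 50 after the start, 34 (81.0%) held one, against 13.6% of all genes. CCAAT was present in 33 (78.6%) against 39.7%, and at least 2 CCAAT words in 22 (52.4%) against 12.9%. Words of the E2F type were less widespread. TTCCCGC was found for 3 genes (7.14%, against 7.82% of all genes) and TTTGGCGC for 2 (4.76%, against 0.795%). TTTCCCGC, which contains TTCCCGC, was found for 1 (2.38%, against 1.98%). All 10 mitotic kinesin genes and all 6 midzone and cytokinesis genes had a homology region word near the start. CCNA2, AURKB, NEK2, BUB1, CENPI, CENPK, TOP2A and NCAPD2 had neither TTTGAA nor TTTAAA there. Other forms of the element were not searched, so a gene without these words may still hold it. A match describes the letters in the window and is not a binding site.

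**Figure D1:**
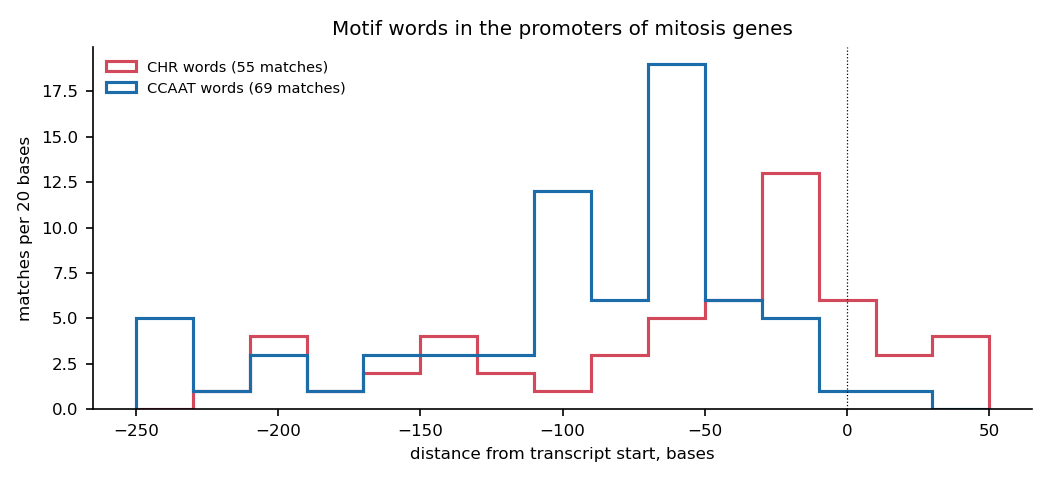
Number of matches per 20 bases (vertical axis) by distance from the transcript start in bases (horizontal axis), over the first listed promoter of each of 42 mitosis genes. The 55 homology region (CHR) matches had their median at -35 and were densest from -30 to -10 (13 matches), and the 69 CCAAT matches had their median at -79 and were densest from -70 to -50 (19 matches).

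Across the 50 genes, transcripts were mostly lower after gomisin G, by modest amounts. The log2 change (gomisin G minus vehicle) was negative for 47, against 49.3% of all tested genes, and its median was -0.46, against 0.0092 over all tested genes. Taken by library, that median was -0.44 for gomisin G replicate 1 and -0.47 for replicate 2. The summed level of the 50 genes was 7647 and 7800 CPM with vehicle and 5536 and 5586 CPM with gomisin G, which do not overlap. In cells sampled in bulk, fewer dividing cells and less of these RNAs per dividing cell cannot be told apart.

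Only KIF15 passed the threshold of an adjusted p below 0.05 in edgeR's quasi-likelihood test with Benjamini-Hochberg adjustment over all tested genes, and it was lower. That test called 0.903% of all tested genes lower and 0.922% higher. An unadjusted p below 0.05 was reached by 29 of the 50, all lower, and by 0 higher, against 9.62% of all tested genes lower and 10.9% higher. In 38 of the 50, both gomisin G libraries lay below both vehicle libraries, and in 0 both lay above, where these shares over all tested genes were 27.3% and 27%. Both gomisin G libraries were at least 0.5 below the vehicle mean on the log2 scale for 16 genes, against 5.43% of all tested genes: CCNA2, BUB1, BUB1B, KIF15, KIF20B, KIF23, CENPI, CENPK, ANLN, ECT2, TOP2A, MKI67, NCAPG, NCAPH, SMC2 and SMC4. No member was lower by 1 or more in the fit. With simulated counts the edgeR test picked up 2% of 1.5-fold differences and 62% of 2-fold ones. Members without a call may therefore still differ between the groups.

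How many of the 50 were called depended on single libraries. Without vehicle replicate 1 or without vehicle replicate 2, 0 were called (0.522% and 0.397% of all tested genes were called lower), with 11 and 12 at an unadjusted p below 0.05. Without gomisin G replicate 1, 38 were called lower, against 8.85% of all tested genes, and 45 had an unadjusted p below 0.05. Without gomisin G replicate 2, 31 were called lower and 2 higher, against 20.1% and 18.5% of all tested genes. In each of these fits the group left with 1 library is assumed to vary like the other. The share of all tested genes at an unadjusted p below 0.05 was not worked out for them. The members' counts at that level therefore have no background to be read against. DESeq2 called 14 of the 50, all lower, where it called 3.18% of all genes with an adjusted p lower.

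**Figure D2:**
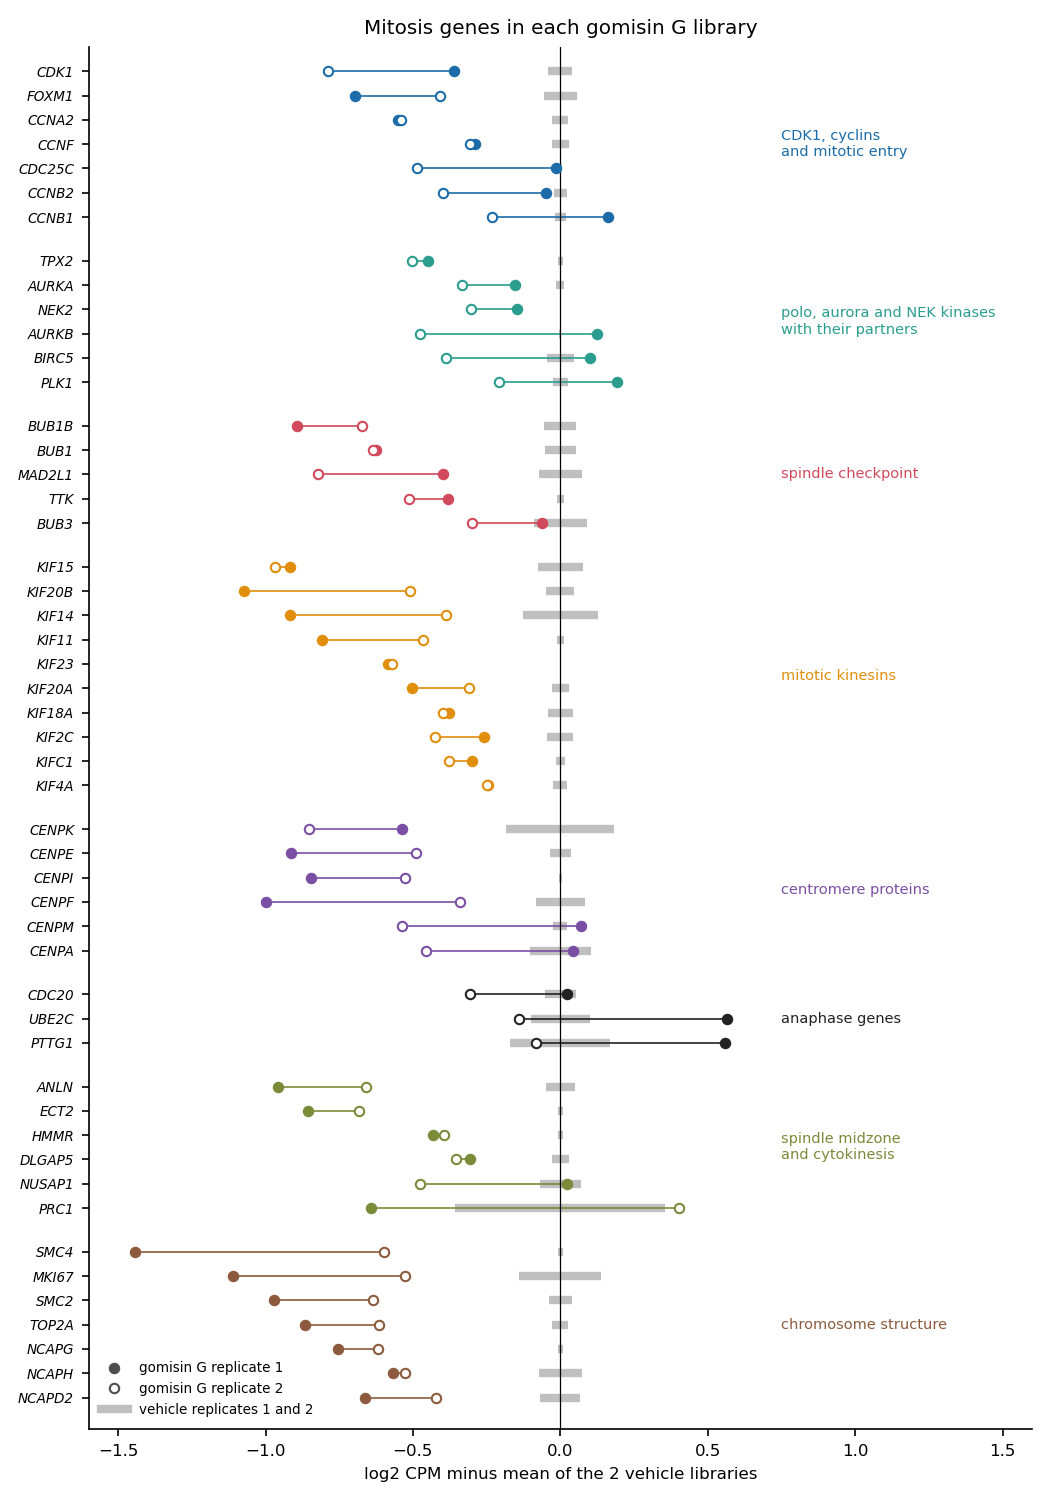
Log2 CPM of each mitosis gene in gomisin G replicate 1 (filled) and replicate 2 (open) minus the mean of the 2 vehicle libraries, grouped by role, with the grey bar spanning the vehicle libraries. Both circles lie left of the grey bar for 38 genes, and 12 genes overlap it or lie on both sides, among them all 3 anaphase genes.

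The 5 spindle checkpoint genes had a median log2 change of -0.60, which was -0.40 by gomisin G replicate 1 alone and -0.64 by replicate 2. The edgeR test called 0, and DESeq2 called 2 (BUB1 and BUB1B). In edgeR 4 had an unadjusted p below 0.05, and in 4 both gomisin G libraries lay below both vehicle libraries. BUB1B encodes BubR1, a subunit of the mitotic checkpoint complex that inhibits CDC20, and lies on chromosome 15 from 40161023 to 40221136. Its level was 85.8 and 92.5 CPM with vehicle against 47.9 and 55.9 CPM with gomisin G. The groups were clear of each other, and the gomisin G mean stood at 58.2% of the vehicle mean (log2 change -0.78, SE 0.16, adjusted p = 0.0583).

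BUB1, the kinase that marks kinetochores for checkpoint proteins and shugoshin (chromosome 2, 110637698 to 110678114), was measured at 170.7 and 183.7 CPM with vehicle and at 114.9 and 113.9 CPM with gomisin G. Its gomisin G replicates nearly coincided, and the log2 change was -0.63 (SE 0.15, adjusted p = 0.0765). MAD2L1 encodes MAD2, which binds CDC20 at unattached kinetochores (chromosome 4, 120055608 to 120067074), and gave 143.2 and 129.3 CPM against 103.3 and 77.0 CPM. Both treated libraries were low, replicate 2 the more so (log2 change -0.60, SE 0.19, adjusted p = 0.135). TTK, the checkpoint kinase also called MPS1, had a log2 change of -0.45, and BUB3, the WD-repeat partner of BUB1 and BubR1, one of -0.18 with overlapping groups.

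The 10 mitotic kinesins were low in both treated libraries: both gomisin G libraries lay below both vehicle libraries for all 10. Their median log2 change was -0.49 (-0.54 and -0.41 by gomisin G library), 7 had an unadjusted p below 0.05 and 1 was called in edgeR's test, where DESeq2 called 4 (KIF11, KIF15, KIF20B and KIF23). The gene called by edgeR, KIF15 (chromosome 3, 44761717 to 44873376), encodes a motor that helps keep spindle poles apart alongside KIF11. It was at 31.4 and 34.9 CPM with vehicle and at 17.5 and 16.9 CPM with gomisin G, with close agreement within each group. KIF15 fell by 0.95 on the log2 scale (SE 0.17, adjusted p = 0.0387), to 51.8% of the vehicle mean. The call was lost with upper-quartile scaling (adjusted p = 0.0511). It was also lost when either vehicle library was left out, with an adjusted p of 0.155 without replicate 1 and of 0.324 without replicate 2.

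KIF23 encodes MKLP1, the motor of the centralspindlin complex at the midzone, and lies on chromosome 15 from 69414246 to 69448427. Its libraries read 150.2 and 149.7 CPM against 99.9 and 101.0 CPM, almost without spread within a group (log2 change -0.58, SE 0.15, adjusted p = 0.0879). KIF20B, a kinesin of the midzone and late cytokinesis (chromosome 10, 89701610 to 89774939), was at 95.1 and 101.6 CPM against 46.7 and 69.1 CPM. There the treated libraries were both low but far apart (log2 change -0.76, SE 0.21, adjusted p = 0.101).

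Among the other kinesins, KIF11, the tetrameric motor Eg5 that separates the spindle poles, had a log2 change of -0.63, and KIF14, a cytokinesis kinesin that binds PRC1 and citron kinase, one of -0.63. KIF20A (MKLP2, which carries the chromosomal passenger complex to the midzone) gave -0.40, and KIF18A, which dampens chromosome oscillation at the metaphase plate, gave -0.39. KIF2C (MCAK, a microtubule depolymerase) and KIFC1 (the minus-end motor HSET) both gave -0.34. KIF4A, a chromokinesin, was nearest to vehicle at -0.25.

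The 3 anaphase genes did not follow that pattern. Their median log2 change was 0.25, from 0.56 for gomisin G replicate 1 and -0.14 for replicate 2. None of the 3 was called by edgeR or DESeq2 or had an unadjusted p below 0.05 in edgeR, and in all 3 the groups overlapped. PTTG1 encodes securin, the inhibitor of separase (chromosome 5, 160421822 to 160428744), and gave 81.2 and 64.2 CPM with vehicle and 106.3 and 68.2 CPM with gomisin G. One treated library was the highest of the 4 and the other lay within the vehicle range (log2 change 0.26, SE 0.24, adjusted p = 0.549).

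UBE2C, the E2 enzyme of the APC/C (chromosome 20, 45812576 to 45816957), was at 130.7 and 113.7 CPM against 180.3 and 110.7 CPM. Its treated libraries lay on both sides of the vehicle range (log2 change 0.25, SE 0.24, adjusted p = 0.566). CDC20, the APC/C activator that the checkpoint inhibits (chromosome 1, 43358955 to 43363203), read 390.1 and 362.8 CPM against 382.3 and 304.4 CPM. Replicate 1 lay within the vehicle range and replicate 2 below it (log2 change -0.13, SE 0.18, adjusted p = 0.710). The sign of all 3 turned on 1 library. Without gomisin G replicate 1, PTTG1 and UBE2C had log2 changes of -0.09 and -0.15 and the median was -0.15. Without replicate 2, CDC20 had 0.02 and the median was 0.55. The difference of the anaphase genes from the checkpoint and kinesin genes was not tested.

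**Figure D3:**
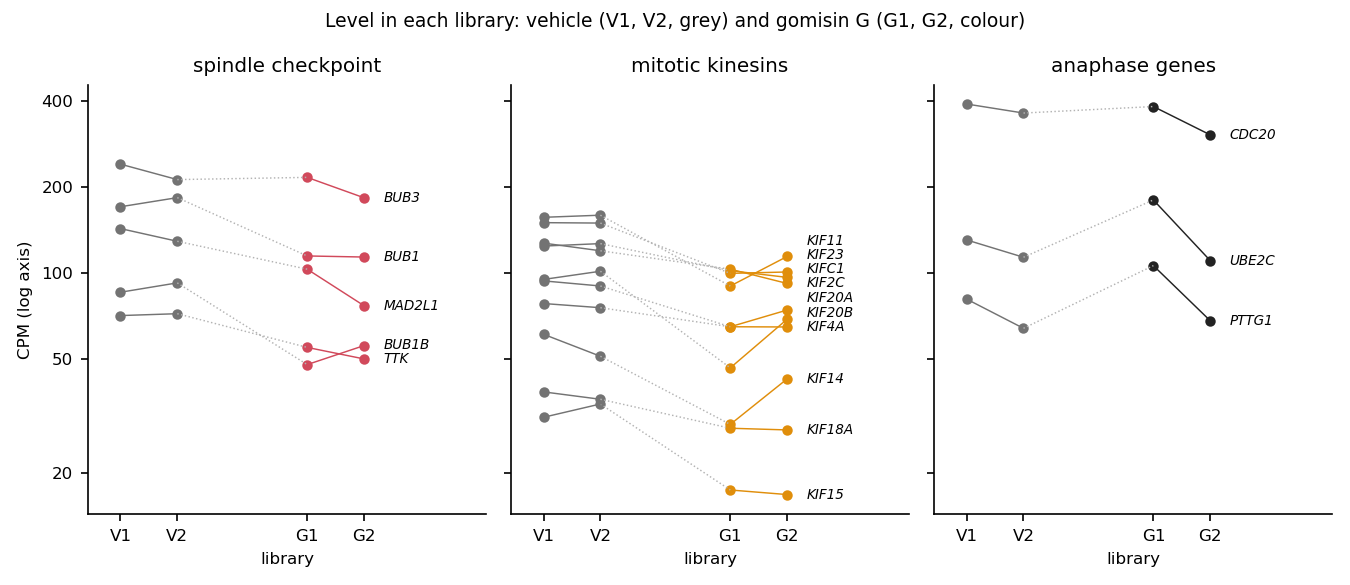
Level in CPM (log axis) of the checkpoint, kinesin and anaphase genes in vehicle replicates 1 and 2 (V1, V2) and gomisin G replicates 1 and 2 (G1, G2), 1 line per gene. All 10 kinesins and 4 of 5 checkpoint genes are lower in both gomisin G libraries, and the anaphase genes PTTG1 and UBE2C are highest in gomisin G replicate 1.

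The 7 genes of CDK1, the cyclins and mitotic entry had a median log2 change of -0.30 (-0.29 and -0.41 in the gomisin G libraries). None was called by edgeR or DESeq2, 3 had an unadjusted p below 0.05, and 6 had both gomisin G libraries below both vehicle libraries. CCNA2 encodes cyclin A2, the cyclin of S phase and early mitosis (chromosome 4, 121816444 to 121823933), and was at 142.9 and 148.4 CPM against 99.4 and 100.2 CPM. Replicates were close in both groups and the groups were apart (log2 change -0.55, SE 0.15, adjusted p = 0.101).

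FOXM1, the transcription factor that drives many late cell cycle genes (chromosome 12, 2857681 to 2877155), gave 184.1 and 198.8 CPM against 118.0 and 144.1 CPM (log2 change -0.55, SE 0.17, adjusted p = 0.129). CDK1 itself (chromosome 10, 60778331 to 60794852) gave 139.5 and 131.9 CPM against 105.5 and 78.4 CPM (log2 change -0.56, SE 0.18, adjusted p = 0.148). Both stayed below the vehicle range in each treated library, FOXM1 more in replicate 1 and CDK1 more in replicate 2. CCNF, the F-box cyclin, had a log2 change of -0.30, and CDC25C, the phosphatase that activates CDK1, one of -0.23. The B-type cyclins were nearer to vehicle than CDK1: CCNB2 had -0.21 and CCNB1 had -0.02, the latter at 246.3 and 240.2 CPM with vehicle and 271.7 and 207.3 CPM with gomisin G, on both sides of the vehicle range.

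The 6 polo, aurora and NEK kinases with their partners had the median nearest to 0 of the 8 role lists, -0.18, and the gomisin G libraries differed (-0.02 and -0.36). None was called by edgeR or DESeq2, 1 had an unadjusted p below 0.05, and 3 had both gomisin G libraries below both vehicle libraries. That 1 gene was TPX2, the spindle assembly factor that activates aurora A (chromosome 20, 31739271 to 31801805), at 249.8 and 246.8 CPM against 181.9 and 175.1 CPM. Its groups were well apart (log2 change -0.48, SE 0.15, adjusted p = 0.140).

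AURKA, aurora A of the spindle poles (chromosome 20, 56369389 to 56392337), was at 139.1 and 141.6 CPM against 126.1 and 111.4 CPM (log2 change -0.24, SE 0.15, adjusted p = 0.405). NEK2, a centrosome kinase (chromosome 1, 211658657 to 211675630), was at 50.3 and 50.3 CPM against 45.5 and 40.7 CPM (log2 change -0.22, SE 0.16, adjusted p = 0.454). In both, the treated libraries were lower by less than the fit could separate from replicate spread. PLK1, polo-like kinase 1, had a log2 change of 0.0061, AURKB, the kinase of the chromosomal passenger complex, one of -0.14, and BIRC5 (survivin, a subunit of that complex) one of -0.12. For these 3, gomisin G replicate 1 was above the vehicle mean and replicate 2 below it.

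The 6 centromere proteins had a median log2 change of -0.66 (-0.69 and -0.51 in the gomisin G libraries), with 0 called by edgeR, 4 at an unadjusted p below 0.05 in edgeR and 4 with both gomisin G libraries below both vehicle libraries. DESeq2 called 1, CENPE. CENPI, a subunit of the inner centromere network CCAN (chromosome X, 101098218 to 101163681), was at 37.4 and 37.1 CPM against 20.7 and 25.8 CPM (log2 change -0.68, SE 0.18, adjusted p = 0.0944). CENPE, the kinesin motor that brings chromosomes to the metaphase plate (chromosome 4, 103105806 to 103198409), was at 68.8 and 65.6 CPM against 35.6 and 47.8 CPM (log2 change -0.69, SE 0.19, adjusted p = 0.101). CENPK, another CCAN subunit (chromosome 5, 65517766 to 65563171), was at 44.0 and 34.1 CPM against 26.7 and 21.4 CPM (log2 change -0.70, SE 0.20, adjusted p = 0.115).

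In these 3 genes the groups did not overlap, with CENPK the most spread among vehicle libraries. CENPF, a large outer kinetochore protein, had a log2 change of -0.63, from 350.6 and 393.2 CPM to 185.8 and 293.3 CPM, so its treated libraries were far apart. The 2 shortest genes of the list were nearest to vehicle: CENPA, the histone H3 variant of centromeres, had -0.19, and CENPM, a small CCAN subunit, had -0.20. Both had overlapping groups, with gomisin G replicate 1 above the vehicle mean.

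The 6 genes of the spindle midzone and cytokinesis had a median log2 change of -0.37 (-0.54 and -0.44 in the gomisin G libraries). The edgeR test called 0, and DESeq2 called 2 (ANLN and ECT2). In edgeR 3 had an unadjusted p below 0.05 and 4 had both gomisin G libraries below both vehicle libraries. ECT2, the exchange factor that activates RhoA at the division plane (chromosome 3, 172750682 to 172821474), was at 279.8 and 282.8 CPM against 155.3 and 175.2 CPM (log2 change -0.77, SE 0.16, adjusted p = 0.0550). ANLN, the contractile ring scaffold anillin (chromosome 7, 36389806 to 36453791), was at 178.7 and 191.4 CPM against 95.3 and 117.2 CPM (log2 change -0.80, SE 0.17, adjusted p = 0.0583).

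ECT2 and ANLN stood at 58.8% and 57.4% of the vehicle mean, with wide gaps between the groups. HMMR, a spindle protein that binds TPX2 (chromosome 5, 163460203 to 163491945), was at 115.8 and 117.1 CPM against 86.3 and 88.6 CPM (log2 change -0.41, SE 0.15, adjusted p = 0.176). DLGAP5 (HURP, which stabilizes kinetochore fibres) had -0.33 and NUSAP1, a microtubule-bundling protein, -0.21. PRC1, the bundler of midzone microtubules, had -0.06 (SE 0.45), but only 46 and 28 counts with vehicle and 22 and 52 with gomisin G.

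The 7 chromosome structure genes had the lowest median of the 8 role lists, -0.74 (-0.87 and -0.60 by gomisin G library). All 7 had an unadjusted p below 0.05 in edgeR and both gomisin G libraries below both vehicle libraries. The edgeR test called 0 of them, and DESeq2 called 5 (TOP2A, MKI67, NCAPG, SMC2 and SMC4). SMC2, a core ATPase of condensin (chromosome 9, 104094260 to 104141417), was at 187.0 and 197.2 CPM against 97.9 and 123.7 CPM (log2 change -0.79, SE 0.17, adjusted p = 0.0613). NCAPG, a HEAT-repeat subunit of condensin I (chromosome 4, 17810902 to 17844862), was at 142.2 and 140.4 CPM against 83.8 and 92.0 CPM (log2 change -0.68, SE 0.15, adjusted p = 0.0642). TOP2A, the topoisomerase that untangles sister chromatids (chromosome 17, 40388516 to 40417950), was at 625.1 and 648.9 CPM against 349.0 and 416.2 CPM (log2 change -0.74, SE 0.18, adjusted p = 0.0786).

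Each of these stood at 57.7% to 62.2% of the vehicle mean. SMC4, the partner of SMC2, had the lowest log2 change of the 50 (-0.96) but also the widest gap between treated libraries within the list, from 284.2 and 287.3 CPM to 105.1 and 188.7 CPM. The other condensin I subunits had -0.55 (NCAPH) and -0.54 (NCAPD2). MKI67, the Ki-67 protein that coats mitotic chromosomes and serves as a proliferation marker, had -0.80, from 634.7 and 769.9 CPM to 323.7 and 485.2 CPM.

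Per length, the most abundant of the 50 transcripts with vehicle was CDC20 at 184.7 CPM per kb, followed by TOP2A (98.96), CCNB1 (95.08) and UBE2C (95.01). With gomisin G the order of these 4 was CDC20 (168.5), UBE2C (113.1), CCNB1 (93.63) and TOP2A (59.44), so TOP2A went from the second to the fourth place. The lowest levels per length with vehicle were those of PRC1 (0.458), NUSAP1 (4.85) and KIF15 (6.27).

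Gene length ran with the changes. Across the 50 genes the log2 change had a Pearson r of -0.68 (Spearman rho -0.66) with log2 exonic length, and the difference between gomisin G replicates 1 and 2 had r of -0.75 (rho -0.75). Over all 15721 tested genes these values were -0.21 (rho -0.29) and -0.23 (rho -0.38). The genes share their 4 libraries, so these are descriptions across genes. The 11 members under 3000 bases had a median log2 change of -0.19, with 0.04 for gomisin G replicate 1 and -0.40 for replicate 2, against 0.19 for all tested genes of that length. The 5 members of 8000 bases or more had -0.69, against -0.19 for all tested genes of that length. In each of the 4 length bands the members' median was thus below that of all genes.

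With the trend on length removed in each library, the median of the members was -0.46, and 13 were called lower and 0 higher, where 2.74% of all tested genes were called lower. The medians were then 0.02 for the anaphase genes, -0.54 for the checkpoint genes, -0.47 for the kinesins and -0.66 for the chromosome structure genes. The anaphase genes have exonic lengths of 1286 bases (UBE2C), 2013 bases (PTTG1) and 2038 bases (CDC20). Across the 50 genes r with length was still -0.39 (rho -0.43) after removal.

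**Figure D4:**
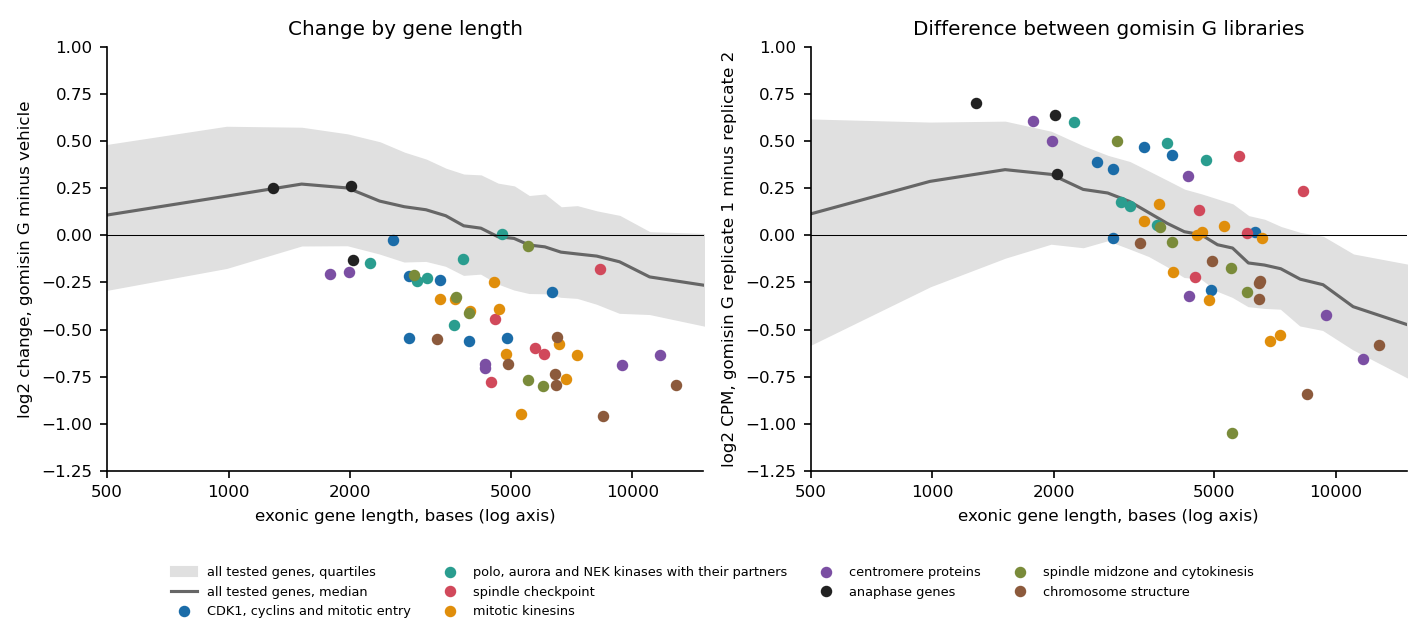
Log2 change (left) and the difference in log2 CPM between gomisin G replicates 1 and 2 (right) against exonic gene length in bases (log axis), for the 50 mitosis genes by role, over the median and quartiles of all tested genes. Most of the shortest members are near 0 on the left and above 0 on the right, with CCNA2 as an exception. Most of the longest are low on both, with BUB3 as an exception. Most members lie under the line of all genes on the left.

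The gomisin G libraries differed by more than 0.5 on the log2 scale for 10 of the 50 genes: AURKB, KIF14, KIF20B, CENPF, CENPM, PTTG1, UBE2C, PRC1, MKI67 and SMC4. The vehicle libraries did so for 1. For 11 genes the treated libraries lay on opposite sides of the vehicle mean: CCNB1, PLK1, AURKB, BIRC5, CENPA, CENPM, CDC20, PTTG1, UBE2C, NUSAP1 and PRC1. None of the 10 kinesins, the 5 checkpoint genes or the 7 chromosome structure genes was among these 11.

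Genes of the same processes outside the 50 were mostly lower too. Their lists, like the members, were chosen with earlier results of these data known. Of 101 further mitosis genes, all tested, 85 had a log2 change below 0 and 16 above it, with a median of -0.38, and 0 were called in edgeR's test. An unadjusted p below 0.05 was reached by 49 lower and 2 higher, where 9.62% and 10.9% of all tested genes reached it. DESeq2 called 12 lower and 1 higher, where it called 3.18% of all genes with an adjusted p lower and 3.32% higher. With the length trend removed 22 were called lower and 1 higher, against 2.74% and 2.75% of all tested genes. How many were called depended on the library left out. The medians of the role lists among them ran from -0.45 to -0.35 without vehicle replicate 1 and from -0.50 to -0.24 without vehicle replicate 2. They ran from -0.52 to -0.20 without gomisin G replicate 1 and from -0.40 to -0.24 without gomisin G replicate 2. The 32 further checkpoint and kinetochore genes had a median of -0.38, led by KNTC1 (-0.86, adjusted p = 0.0590), KNL1 (-0.81, adjusted p = 0.0642) and SKA3 (-0.73, adjusted p = 0.0689), which are the ROD checkpoint protein, the kinetochore scaffold that BUB1 binds, and a SKA complex subunit.

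The 29 further anaphase genes, mostly APC/C subunits and cohesin, had a median of -0.30, with 21 lower and 8 higher. SGO2, a shugoshin that protects centromeric cohesin, had -0.87 (adjusted p = 0.0562), and the cohesin genes SMC1A and PDS5B had -0.78 and -0.67 (adjusted p = 0.0810 and 0.103). The 16 further kinases, phosphatases and passenger proteins had a median of -0.46. PLK4, the kinase of centriole duplication, had -0.80 (adjusted p = 0.0601) and HASPIN, the histone H3 kinase of mitosis, -0.66 (adjusted p = 0.0826). CDC25B, a phosphatase that starts mitotic entry, went the other way at 0.63 (adjusted p = 0.0896), from 252.9 and 254.0 CPM to 413.3 and 368.9 CPM. All 24 further spindle, cytokinesis and condensin genes had changes below 0 (median -0.39), led by DEPDC1 (-0.69), CDCA2 (-0.67) and KIF18B (-0.69), with adjusted p of 0.0642, 0.0689 and 0.0763.

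Other kinesins and kinesin light chains, called transport kinesins here, served as a comparison for the mitotic ones. Of 28 such genes, 24 were tested, 15 with a negative and 9 with a positive log2 change, and their median was -0.10 (-0.44 and 0.08 by gomisin G library), against -0.49 for the 10 mitotic kinesins. KIFC3 (-1.65, adjusted p = 0.00784) and KIF26B (-1.87, adjusted p = 0.0280) were called lower, both by more than any mitotic kinesin. The edgeR test called 0.903% of all tested genes lower. With the length trend removed the medians were 0.08 and -0.47. Without gomisin G replicate 1 the transport median was 0.08, and without replicate 2 it was -0.44. The difference between the lists was not tested. Of the 19 transport kinesins with a promoter in the table, 0 had TTTGAA or TTTAAA near the start, against 10 of 10 mitotic kinesins.

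The genes of replication origin licensing and firing, which act in G1 and S phase, had a lower median than the mitosis genes. All 23 log2 changes were below 0 (median -0.69, with -0.57 and -0.79 by library), and edgeR called 8 lower, where it called 0.903% of all tested genes lower: MCM10 (-1.26), MCM2 (-1.26), ORC1 (-0.96), CDC6 (-0.93), MCM4 (-0.90), MCM6 (-0.89), MCM5 (-0.83) and MCM3 (-0.82). Fewer were called when either vehicle library was left out, and more when either gomisin G library was. The share of all tested genes called lower moved the same way. In each of these fits the list median stayed below 0. Dropping vehicle replicate 1 moved the median to -0.66, and dropping vehicle replicate 2 to -0.73. For the treated group it became -0.80 when replicate 1 was dropped and -0.57 when replicate 2 was. The number called lower was 5 with upper-quartile factors, against 0.725% of all tested genes, and 15 with the length trend removed, against 2.74%. DESeq2 called 12 lower, against 3.18% of all genes with an adjusted p. Among the 20 of these genes with a promoter in the table, 2 held TTTGAA or TTTAAA, 7 TTCCCGC and 4 TTTGGCGC. Of the 42 mitosis genes with a promoter 36, 3 and 2 did. Whether the lists differed in their change was not tested.

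**Figure D5:**
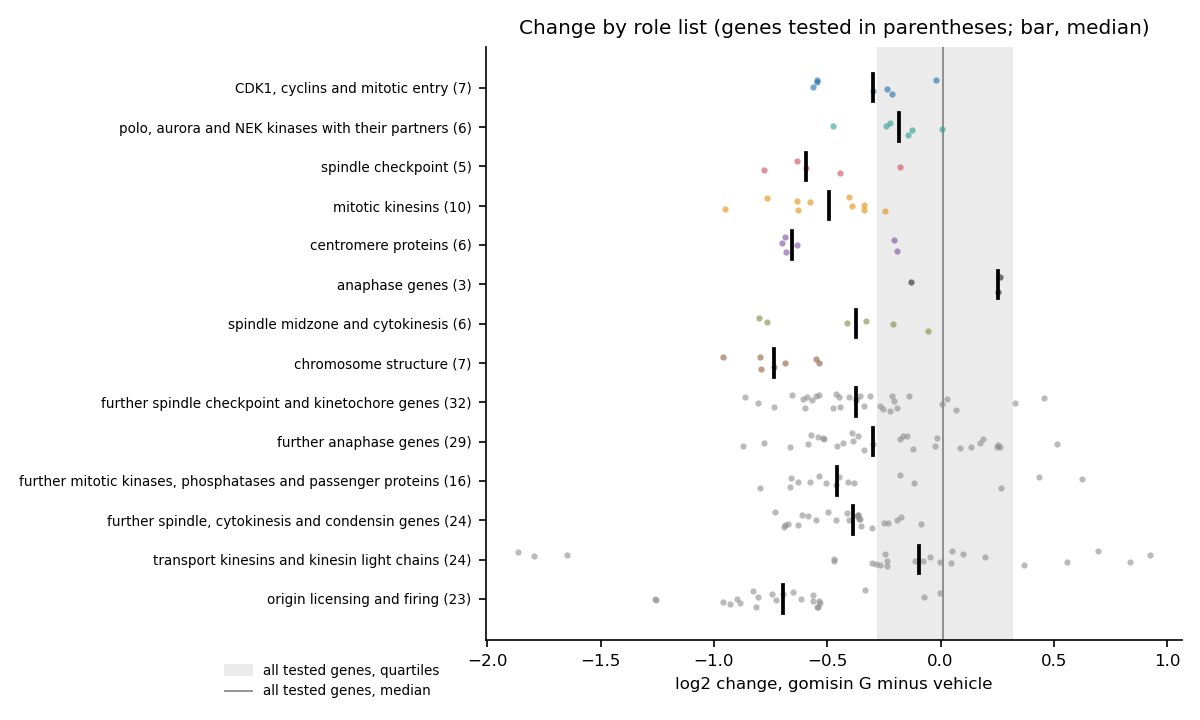
Log2 change of each tested gene (points) with the list median (black bar) for the 8 role lists of the 50 mitosis genes, the 4 lists of further mitosis genes and the 2 comparison lists, over the quartiles (shading) and median (line) of all tested genes. Every mitosis list but that of the 3 anaphase genes has its median below 0, and origin licensing is at -0.69.

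Among 4 CDK inhibitor genes, edgeR called 1 higher, CDKN1C (p57), where it called 0.922% of all tested genes higher. CDKN1C went from 8.69 and 8.28 CPM to 41.3 and 27.0 CPM (log2 change 2.01, SE 0.25, adjusted p = 0.0140). CDKN1B (p27) had 0.44 (adjusted p = 0.162), CDKN1A (p21) 0.09 and CDKN2B -0.11, the last at about 1 CPM or less. Their summed level was 318.3 and 280.2 CPM with vehicle and 393.5 and 343.3 CPM with gomisin G. Their part in the levels of the mitosis genes was not tested.

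Among the 42 genes with a promoter, the 34 with a homology region word near the start had a median log2 change of -0.48 and the 8 without one -0.59. The 33 with CCAAT had -0.40 and the 9 without it -0.78. These are descriptions, with wide ranges in each: from -0.96 to 0.26 with the homology region word and from -0.74 to -0.14 without it. For CCAAT the ranges were from -0.80 to 0.26 with it and from -0.96 to -0.34 without it. Gene length was not held fixed in these splits.

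Some values carry uncertainty from overlapping or similar genes. Exons of 21 members overlap those of another gene in GENCODE 29, and whether the counting used strand was not given in the sources used here. For NUSAP1 62.2% and for PRC1 58.4% of exon bases are shared, nearly all with a gene on the same strand, so their low counts are uncertain as levels. NCAPG shares 33.1% with LCORL and SMC4 shares 25.6% with genes on the opposite strand. PLK1 overlaps ERN2 by 42 bases, and ERN2 had 106 and 138 counts with vehicle and 431 and 451 with gomisin G. Pseudogene copies held few counts, the most being UBE2CP2 with 19 to 30 counts per library.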

How the data were processed

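RNA-seq gene counts of 4 SW1990 libraries were used. The authors deposited raw counts for each gene, with no scaling. Trimming, alignment and counting tools (fastp, HISAT2, featureCounts) and build hg38 are named in the submitters' processing notes, and settings were not given in the sources used here. Identifiers, coordinates and exonic lengths of all 58735 rows equal those of GENCODE 29. Per the labels, replicates carry numbers only, so groups were compared without pairing.

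All genes were fitted together in edgeR 4.0.16 (R 4.3.3): filterByExpr, TMM factors, and a two-sided quasi-likelihood F test with robust estimation, with treatment alone and 2 residual degrees of freedom. Benjamini-Hochberg adjustment ran over the 15721 tested genes, and an adjusted p below 0.05 is a call. CPM values use TMM library sizes. The standard error (SE) is the absolute log2 change divided by the square root of F. The script was tested on simulated counts, 2 libraries against 2. Its detection rate there was 2% at a 1.5-fold difference, 62% at 2-fold and 89% at 4-fold. The lack of a call therefore does not show that a gene was unchanged.

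Every member is named. Library values, SE and adjusted p are given for the 3 members of each role list with the lowest p; from other lists, called genes or otherwise the 3 with the lowest p are named. Values of further members were added where their libraries stood apart or overlapped. The members and lists were chosen with earlier results of these data known. Alternatives were RLE and upper-quartile factors, no filter or a filter of at least 50 counts in 2 libraries, the legacy edgeR fit, DESeq2 1.42.0, limma 3.58.1 (voom), leaving out each library, a block on the label number, and removal of a per-library trend on log2 gene length. Promoters came from RefSeq (GRCh38.p14) and motifs were searched on both strands.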

Additional observations from a re-analysis of the deposited data

How the results depend on the processing

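The count of 1 called gene (KIF15) was kept with RLE factors, no filter, the filter of 50 counts, the legacy fit and limma voom, with the gene's adjusted p from 0.0376 to 0.0432. It was 0 with upper-quartile factors, which moved the median of all tested genes from 0.0092 to 0.07 and that of the members to -0.40. With upper-quartile factors 27 members had an unadjusted p below 0.05. The share of all tested genes at that level was not worked out for that fit. DESeq2 called 14, removal of the length trend 13, and leaving out 1 library gave 0 to 38. The number with an unadjusted p below 0.05 was 29, and 11 to 45 with 1 library left out. Over the fits with 1 library left out, the median of the members ran from -0.47 to -0.44. That of the checkpoint genes ran from -0.64 to -0.40, of the kinesins from -0.54 to -0.41 and of the anaphase genes from -0.15 to 0.55. With 1 library left out the log2 changes ran from -0.093 to 0.55 for PTTG1, from -0.15 to 0.56 for UBE2C and from -0.31 to 0.023 for CDC20. In all, 11 members took another sign in at least 1 fit: these 3, CCNB1, PLK1, AURKB, BIRC5, CENPA, CENPM, NUSAP1 and PRC1. On all 4 libraries 2 did, CCNB1 (0.039 with upper-quartile factors) and PLK1 (-0.0066 with no filter). The cause was not tested.

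The labels give same-numbered libraries only a shared number. The replicate 1 minus 2 differences of the groups had r of 0.21 (rho 0.31) over 15721 genes and r of 0.14 (rho 0.46) over the 50 members, from 2 pairs. With the replicate block 26 members were called, all lower (9.4% of all tested genes were called lower), and 34 with the block and the length trend removed (9.68%). PRC1 was the 1 member with fewer than 100 counts in every library.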

Other observations

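NCAPD2P1, a processed pseudogene of the condensin gene NCAPD2, had 27 and 29 counts with vehicle and 1 and 3 with gomisin G, where NCAPD2 itself had a log2 change of -0.54. AC068831.7, a gene model that shares 57.6% of the exon bases of PRC1 on the same strand, had 163 and 211 counts with vehicle and 82 and 128 with gomisin G, against 46 and 28, and 22 and 52, for PRC1. Both were picked after their values were seen, and their test results are not given here.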
